A study of Mus musculus with 20 samples.

Results

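Rbm3 and Cirbp code for the cold-inducible RNA-binding proteins of mammals. They were chosen by gene symbol, as 2 of the 7117 genes named on the arrays, and each was read by a single probe of the 15245 on the array. The arrays compared brain RNA of null mutant mice with pooled brain RNA of wild-type mice. The 4 regions measured were the cortex, the hippocampus, the cerebellum and a brain stem-diencephalon sample, and each had 5 arrays. Per the labels, the RNA was amplified, and the null RNA was in channel 1 on 3 arrays and in channel 2 on 2 dye-swap arrays of each region. On every array the control was RNA pooled from wild-type mice, so spread among wild-type mice was not measured. The sources used here give no age, sex, strain or number of animals.

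Rbm3 and Cirbp are small proteins made of a single RNA recognition motif and a tail rich in glycine and arginine. Their transcripts rise in cells held at mildly lowered temperature and fall with heat, and in mouse tissues they follow the daily rhythm of body temperature. In the brain, Rbm3 is known for its link to the upkeep of synapses in cooled mice, Cirbp for sustaining circadian gene rhythms, and both for an influence on the choice of polyadenylation sites. Rbm3 lies on the X chromosome and Cirbp on chromosome 10.

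The Cirbp promoter is shown because a short element in the Cirbp 5′ flank, TCCCCGCC, has been reported to bind Sp1 and to respond to mild cold. The 250 bases before the annotated start, at chr10:80167589-80167838 on the plus strand of GRCm38.p6 and taken from RefSeq, hold that element, shown in capitals.

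Cirbp promoter: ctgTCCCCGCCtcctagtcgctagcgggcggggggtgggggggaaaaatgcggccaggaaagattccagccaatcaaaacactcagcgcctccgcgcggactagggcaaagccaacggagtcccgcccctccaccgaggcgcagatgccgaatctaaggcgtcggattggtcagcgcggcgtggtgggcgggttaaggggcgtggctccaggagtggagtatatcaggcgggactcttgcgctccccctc

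The element began at -247 from the start, near the upstream end of the window. On either strand, it was found in 5.38% of the 32851 mouse promoter windows, which run from 250 bases before to 50 after a start. The same Cirbp window held 3 copies of GGGCGG, the core of the GC box bound by Sp1, and 2 of CCAAT, the CCAAT box, counted on both strands. These motifs were found in 35.7% and 37.4% of all windows. A downstream Cirbp start in the same annotation had a window with 4 copies of GGGCGG, no CCAAT and no TCCCCGCC. None of the 3 motifs overlapped another in the upstream window. A match describes these letters only. For Rbm3, no promoter sequence is given here.

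All values below are log2 ratios of null over wild type on one array, with dye swaps turned by sign and each array centred on its median. The sources used here state neither the order of the channels in the deposited ratio nor the base of the log. Channel 1 over channel 2 and log2 are the likely reading, and with the opposite order every sign below turns. Ratios carry no level, so expression of a gene, or of region markers, could not be checked against the labels. Arrays held values for 6793 to 13963 probes, and precision is limited by how many arrays there are. A swapped array was found almost identical in 2 regions, labelled number 1 in cerebellum and number 2 in brain stem-diencephalon (r = 0.9952 over 6748 probes), so results are also given without this repeated array.

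Rbm3 was above 0 on 20 of 20 arrays, and Cirbp on 19 of the 19 arrays with a value. Both genes were chosen on this contrast, so these levels are a description and carry no test. In the cortex, Rbm3 was at 1.61, 1.76 and 1.497 on the channel 1 arrays numbered 1, 2 and 3. It was at 1.42 on the swapped array of number 2 and at 1.67 on a swapped array without a number. The cortex was the region where the Rbm3 replicates lay closest together, with a mean of 1.59 ± 0.07 (SD, n = 4). In the hippocampus, Rbm3 was at 1.57, 2.01 and 1.72 on the channel 1 arrays and at 1.27 and 2.08 on the swapped arrays of numbers 1 and 2. The number 2 arrays were the 2 highest of the 20, and the hippocampal mean was 1.73 ± 0.31 (SD, n = 3).

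In the cerebellum, Rbm3 was at 0.856, 1.69 and 1.46 on the channel 1 arrays numbered 1, 2 and 3, and at 1.11 and 1.81 on the swapped arrays. The value of 0.856, a 1.81-fold ratio, was the lowest of all arrays, and 1.11 came from the repeated array. Brain stem-diencephalon gave 1.25, 1.602 and 1.78 on the channel 1 arrays, 1.15 on the swapped array of number 1 and 1.12 on the repeated array. Within these regions the number 1 arrays and the repeated array lay below the rest. The means were 1.40 ± 0.39 in the cerebellum and 1.45 ± 0.30 in brain stem-diencephalon (SD, n = 3 each).

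Cirbp showed smaller ratios on every array with both genes. In the cortex, Cirbp was at 0.659, 0.292 and 0.659 on the channel 1 arrays numbered 1, 2 and 3 and at 0.329 on the swapped array of number 2, and it had no value on the unnumbered array. The cortical values fell into a high pair, numbers 1 and 3, and a low pair, both of number 2. In the hippocampus, Cirbp was at 0.503, 0.350 and 0.535 on the channel 1 arrays and at 0.623 and 0.522 on the swapped arrays. The cerebellar values were 0.479, 0.498 and 0.599 on the channel 1 arrays, 0.766 on the repeated array and 0.509 on the other swapped array. Outside the repeated array, the cerebellar values of Cirbp lay within the range of the hippocampal ones.

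Brain stem-diencephalon had the lowest mean ratio of Cirbp and the 2 lowest single values, with 0.270, 0.241 and 0.338 on the channel 1 arrays and 0.393 on the swapped array of number 1. The repeated array, at 0.769, stood far above these, and without it every value of this region lay below every cerebellar value. Replicate means were 0.54 ± 0.20 in the cortex, 0.51 ± 0.07 in the hippocampus, 0.58 ± 0.06 in the cerebellum and 0.39 ± 0.10 in brain stem-diencephalon (SD, n = 3 each). Without the repeated array the last of these was 0.30 ± 0.05.

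**Figure D1:**
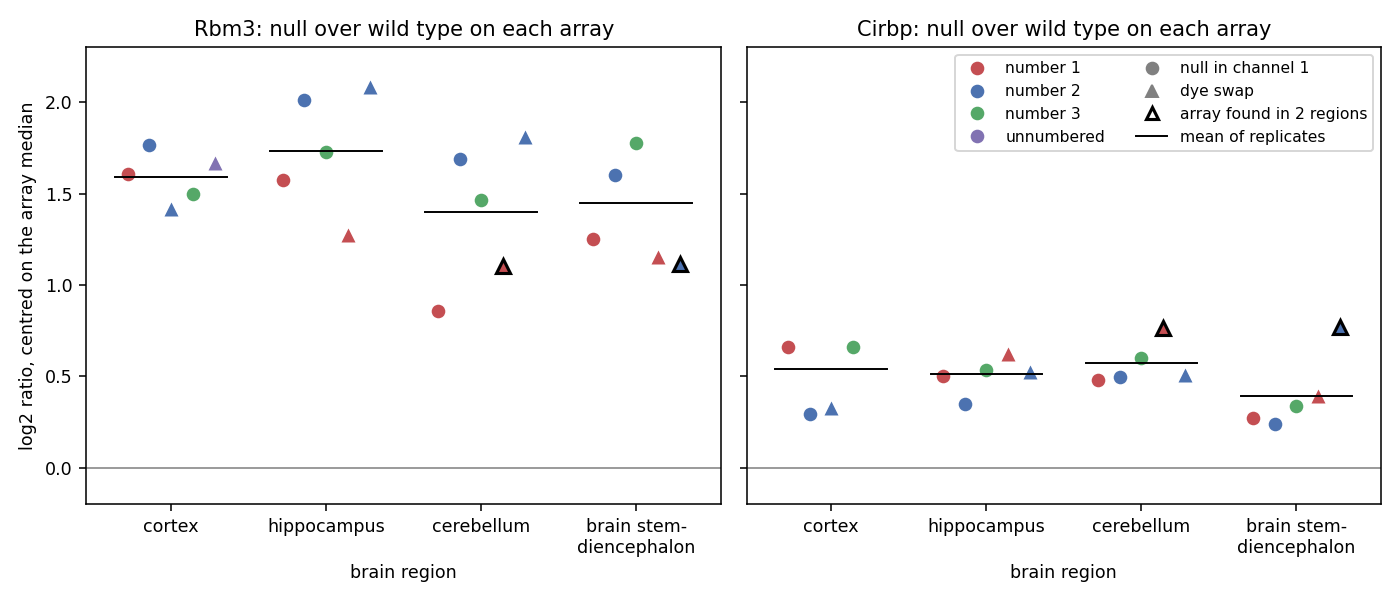
Log2 ratio of null over wild type, centred on the array median, for Rbm3 (left) and Cirbp (right) on each array, by brain region. Colours give the number in the label, circles and triangles the orientation, black outlines the array found in 2 regions, and lines the mean of the replicates. Rbm3 ranges from 0.856 to 2.08 over 20 arrays and Cirbp from 0.241 to 0.769 over 19.

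Among all probes with a value on an array, Rbm3 had the highest ratio on 3 arrays and was among the 10 highest on 12 of 20. Its rank was lowest on the repeated array, at 212 and 208 in its 2 copies, and no lower than 42 on any other. Cirbp ranked between 32 and 2406. Rbm3 stood above Cirbp on each of the 19 arrays with both, by 0.340 to 1.66 with a median of 1.07. Arrays of the same region and number were averaged to 13 replicates, and a linear model held a term for each region and 1 for orientation. The fitted mean of the 4 regions was 1.53 ± 0.08 for Rbm3 (SE, n = 13), a 2.88-fold ratio, the highest estimate of 8319 features. For Cirbp it was 0.47 ± 0.06 (SE, n = 12), a 1.38-fold ratio, the 61st highest. Without the repeated array these means were 1.57 ± 0.10 and 0.42 ± 0.07, the highest and the 82nd highest. Whether replicates came from different animals is not given. Errors and p-values therefore reflect only how far these samples spread, part of which may be technical. They also count replicates as independent, which would not hold if same-numbered samples of different regions shared an animal.

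The replicates of the 2 genes spread differently. The residual SD of Rbm3 was 0.291, larger than that of 85.0% of the features, while the residual SD of Cirbp was 0.118, larger than that of 11.97%. The median over all features was 0.192. In this fit Rbm3 thus combined the highest mean with a spread above most features, and Cirbp a smaller ratio with a tight spread. Without all arrays of number 1, the residual SD was 0.210 for Rbm3 and 0.149 for Cirbp. These were larger than those of 74.2% and 47.2% of features, so the spread of Cirbp was then near the middle.

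Whether the ratios differed between regions was not part of how the genes were chosen, and it could be tested. Neither gene's ratio differed between regions beyond the spread of its replicates in limma's moderated F test. For Rbm3 the fitted order ran from hippocampus, 1.72 ± 0.15, through cortex, 1.58 ± 0.13, and brain stem-diencephalon, 1.43 ± 0.15, to cerebellum, 1.38 ± 0.15 (SE). No neighbours in this order differed beyond their spread, and the F test gave an adjusted p of 0.999 over all features. For Cirbp the order was cerebellum, 0.55 ± 0.09, cortex, 0.49 ± 0.11, hippocampus, 0.48 ± 0.09, and brain stem-diencephalon, 0.36 ± 0.09, and the F test gave an adjusted p of 0.999. The F test called 0 of 8319 features, 0%, with 351 at an unadjusted p under 0.05, and 1 feature, 0.012%, without the repeated array, where neither gene passed.

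All 6 pairs of regions were compared for each gene. The widest Rbm3 gap was hippocampus minus cerebellum, 0.33 ± 0.21 (SE; 95% interval -0.11 to 0.78; limma adjusted p = 0.999). The widest Cirbp gap was cerebellum minus brain stem-diencephalon, 0.18 ± 0.13 (95% interval -0.09 to 0.46; limma adjusted p = 0.999). These intervals leave room for regional differences of either gene, so a shared response across regions is not shown. Without the repeated array, the Cirbp estimate in brain stem-diencephalon was 0.24 ± 0.10, and cortex minus brain stem-diencephalon became 0.24 ± 0.12 (95% interval -0.02 to 0.50; limma adjusted p = 0.70). Over the 6 pairs without this array, the interval of every Cirbp difference included 0.

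**Figure D2:**
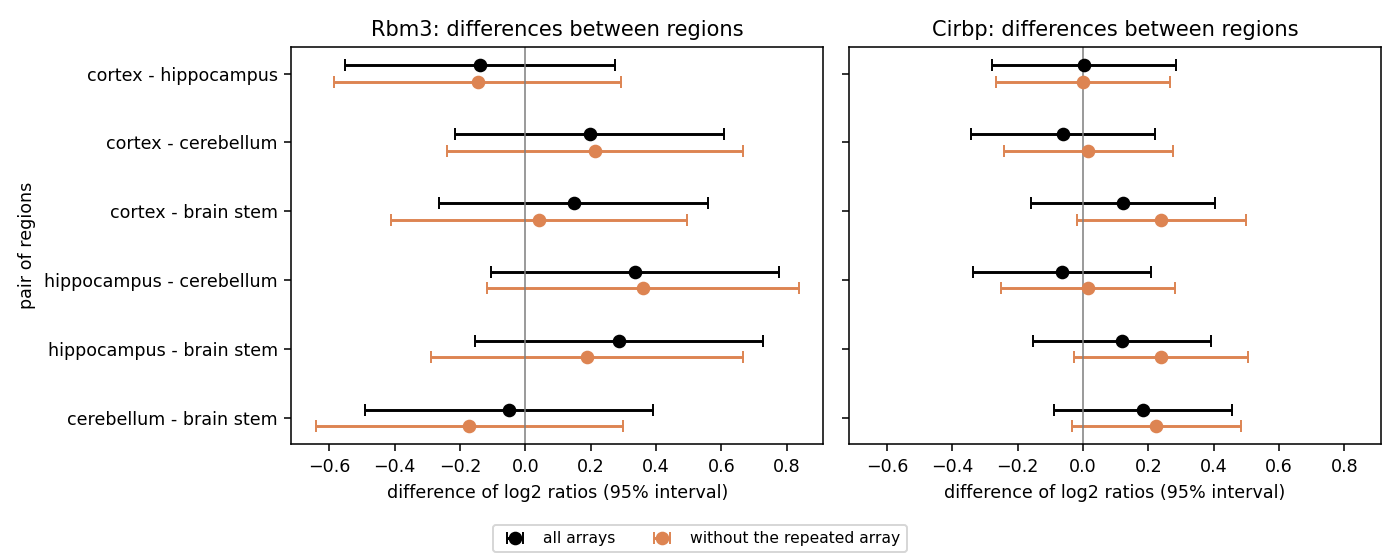
Pairwise differences between regions in the log2 ratio of null over wild type (x axis) for each of 6 pairs (y axis), for Rbm3 (left) and Cirbp (right), with 95% intervals of the linear model. Black marks use all arrays and orange marks leave out the repeated array. All 24 intervals include 0.

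Array orientation was a second measure that had no part in choosing the genes. Over the 7 pairs of a channel 1 array and a swapped array of the same region and number, Rbm3 was higher on the channel 1 array in 4 pairs and on the swapped array in 3, with differences of -0.25 to 0.49. Cirbp was higher on the swapped array in 7 of 7 pairs, by 0.01 to 0.53. In the 5 pairs without the repeated array, these Cirbp differences, channel 1 minus swapped, were -0.17 to -0.01. The model's orientation term compares averaged replicates and does not use these differences within pairs. As a difference of channel 1 minus swapped, it was 0.10 ± 0.23 for Rbm3 (limma adjusted p = 0.855) and 0.17 ± 0.19 for Cirbp (adjusted p = 0.671), for Cirbp opposite in sign to the differences within pairs. The term was called for 77 of 8319 features, 0.926%.

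The number in the label moved with Rbm3 more than with Cirbp. Without the repeated array, Rbm3 on the 6 arrays of number 1 ranged from 0.856 to 1.61 with a median of 1.26. On the other 12 arrays it ranged from 1.42 to 2.08 with a median of 1.71, so the groups overlapped. For Cirbp the medians were 0.491 on the 6 arrays of number 1 and 0.498 on the other 11. The Y-linked gene Eif2s3y, a translation initiation factor gene found in males, split the same arrays. It was at -1.36 to -0.44 on the 6 arrays of number 1 and at 0.93 to 1.64 on the 11 other arrays with a value. On the repeated array, which carries number 1 in the cerebellum, Eif2s3y was at 1.71. The sources used here do not give the sex of the mice. The part of sex in the Rbm3 and Cirbp values was not tested. Both genes, chosen on this contrast, were above 0 on every array with a value on either side of the split.

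Among the other sex-linked genes measured, only Xist, the RNA that silences an X chromosome in females, passed the test in the mean of the 4 regions. Beside it, 13.2% of all features passed as higher. Xist was higher by 0.22 ± 0.06 (limma adjusted p = 0.0198), in 12 of 13 replicates, and lost the call without the repeated array (adjusted p = 0.0622). A further Xist probe, which did not meet the filter, had its median at 0.02 over 13 arrays, while the tested probe had 0.25. The X-linked genes Eif2s3x (0.20), Kdm6a (0.10), Ddx3x (-0.13) and Kdm5c (-0.16) did not pass, nor did Eif2s3y (0.74 ± 0.32, adjusted p = 0.0961). The Eif2s3y mean joins arrays on both sides of 0, and the gene passed in 8 of 24 alternative runs. Without all arrays of number 1, an alternative chosen after seeing the data, the fitted mean was 1.69 ± 0.07 for Rbm3 and 0.44 ± 0.08 for Cirbp. Among 8319 features these were the 3rd and the 258th highest. In that run Eif2s3y, whose split by number had been seen, was at 1.39 ± 0.08. Kdm5c passed as lower there (-0.24 ± 0.07, limma adjusted p = 0.0275).

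**Figure D3:**
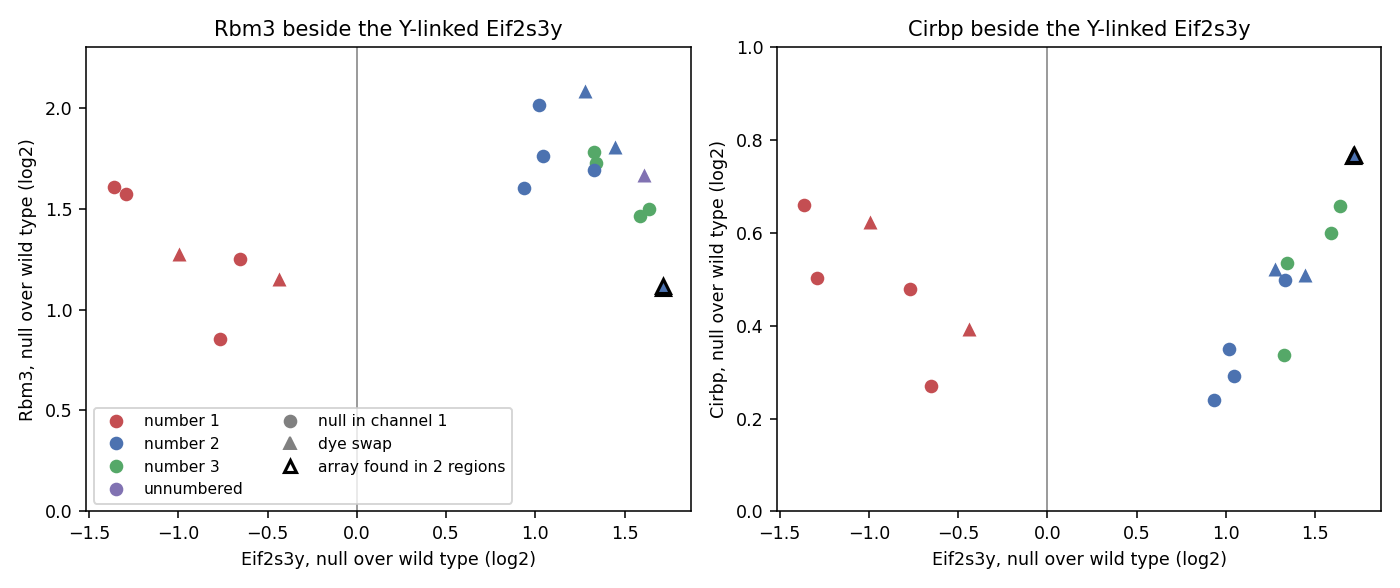
Log2 ratio of null over wild type of Rbm3 (left) and Cirbp (right) on the y axis against that of the Y-linked Eif2s3y on the x axis, 1 point per array with both values. Colours give the number in the label and black outlines the repeated array, whose 2 copies overlap. Eif2s3y is below 0 on the 6 arrays of number 1 other than the repeated array and above 0 on the rest, while Rbm3 and Cirbp are above 0 throughout.

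The nearest measured genes on both chromosomes gave ratios far from those of Rbm3 and Cirbp. The 3 measured genes on either side of Rbm3 were Gata1 (0.15), Was (-0.16), Wdr13 (0.16), Dynlt3 (0.24), Mid1ip1 (-0.04) and Bcor (-0.09), none of which passed the test. Around Cirbp, Sbno2 (-0.06), Stk11 (0.11) and Ndufs7 (-0.09) did not pass. Atp5d, a subunit of the mitochondrial ATP synthase, was lower by 0.24 ± 0.07 (limma adjusted p = 0.0242), Pwwp3a by 0.16 ± 0.06 (adjusted p = 0.0479) and Dazap1, an RNA-binding protein, by 0.18 ± 0.06 (adjusted p = 0.0472). These 3 lost their calls without the unnumbered cortex array (adjusted p of 0.151, 0.220 and 0.0641).

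Gene lists tied to the biology of Rbm3 and Cirbp were read in the mean of the 4 regions, with p-values adjusted over all 8319 features. In that comparison 26.1% of all features passed, 13.2% higher and 12.9% lower, and the median over all features was 0.01. Of 127 measured genes on 9 lists, 45 passed, 15 higher and 30 lower. The total fell to 15 without the unnumbered cortex array, to 26 without replicate 2 of the cerebellum and to 27 without replicate 2 of brain stem-diencephalon. The share of all features that passed in these runs is not given here. Whether the lists fell more than all features did therefore cannot be read from these totals. Without the repeated array 16.9% of all features passed, 8.4% higher and 8.51% lower, and 30 of the 127 list genes, 9 higher and 21 lower. Of the 31 called list genes picked by the naming rule, 12 kept their calls under every alternative run that held them: Hsph1, Chordc1, Stip1, Dnajb1, Ciart, Srpk1, Pabpn1, Hnrnpc, Hnrnpl, Srsf1, Srsf10 and Tra2a. Leaving out the unnumbered cortex array lost the most calls, 17 of the other 19. By the labels it is the only replicate made of a swapped array alone, so orientation is fitted less precisely without it. Cstf2, for example, was at 0.26 ± 0.08 (SE) with this array and at 0.24 ± 0.12 without it. Other estimates moved more, such as that of Rpa2 from 0.23 to 0.16, while that of Nudt21 went from 0.15 to 0.17. A lost call therefore need not mean a changed ratio, but it can come with one.

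Cell type markers also moved. Of 12 measured markers, 5 passed the test, beside 26.1% of all features, and 3 did so without the repeated array, beside 16.9%. Hbb-b1, a globin of blood, was higher by 0.56 ± 0.10, a call lost without the unnumbered cortex array. Slc1a3, an astrocyte glutamate transporter, was higher by 0.14 ± 0.05, but not past the threshold without the repeated array (limma adjusted p = 0.132), and the astrocyte markers Aldoc (-0.06) and Gja1 (0.00205) did not pass. Tubb3, a neuronal tubulin, was lower by 0.66 ± 0.11, while the neuronal neurofilament Nefl, at -0.05, did not pass. Pecam1 of vessels was lower by 0.44 ± 0.07. Ttr, the choroid plexus transthyretin, was lower by 0.31 ± 0.11, with region values from 0.68 in the hippocampus to -1.05 in the cerebellum, and was at -0.13 without the repeated array (adjusted p = 0.637). In bulk tissue, fewer cells of a type and less RNA per cell cannot be told apart, and the part of cell makeup in the results was not tested.

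The cold shock domain family, whose proteins bind RNA through a fold of bacterial cold shock proteins, gave no call on the higher side. Of its 4 measured genes, 0 passed as higher in limma's test (1 at an unadjusted p under 0.05) and 2 as lower, with a median of -0.05. Beside 13.2% of all features higher and 12.9% lower, 4 genes are too few to set the family apart. The share of all features higher at an unadjusted p under 0.05 is not given here. Ybx3 was lower by 0.22 ± 0.05 in 11 of 12 replicates (limma adjusted p = 0.0113), a call lost without replicate 2 of the cortex (adjusted p = 0.0607) and with the replicate number as a block (adjusted p = 0.0650). Csdc2, a brain-enriched member, was lower by 0.17 ± 0.06 (adjusted p = 0.0425; 0.0820 without the repeated array). Ybx1 (0.07 ± 0.06) and Carhsp1 (0.11 ± 0.05) did not pass.

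Heat shock genes, which code for chaperones and their partners, showed calls on the lower side. Of 22 measured genes, 0 passed as higher in limma's test (3 at an unadjusted p under 0.05) and 8 as lower, beside 12.9% of all features lower, and the median of the list was -0.07. The count was 4 without the unnumbered cortex array, and 6 without the repeated array, beside 8.51% of all features lower. In the fit with replicate number as a block, 2 passed as higher and 7 as lower, and without all arrays of number 1 these counts were 2 and 9. Shares over all features are given only at the adjusted threshold, for the main fit and the one without the repeated array. Hsph1, a large chaperone of the Hsp110 family, ranged from -1.09 to 0.14 over 20 arrays with a median of -0.67. It was lower by 0.63 ± 0.10 in 11 of 13 replicates (1.54-fold, limma adjusted p = 0.000957). Chordc1, a partner of Hsp90, ranged from -0.63 to 0.10 with a median of -0.47 and was below 0 in 13 of 13 replicates (-0.43 ± 0.06, adjusted p = 0.000648). All probes tested for these genes, 2 of Hsph1 and 3 of Chordc1, passed in the same direction.

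The other called chaperone genes changed less. Stip1, which bridges Hsp70 and Hsp90, was lower by 0.38 ± 0.07 (adjusted p = 0.00187), and Dnajb1, a co-chaperone of Hsp70, by 0.30 ± 0.06 (adjusted p = 0.00228). Fkbp4, an immunophilin of the Hsp90 complex, was lower by 0.38 ± 0.10 (adjusted p = 0.0135), but not past the threshold without the unnumbered cortex array (adjusted p = 0.104). Cryab, a small heat shock protein, was at -0.25, Hspe1, the mitochondrial chaperonin partner, at -0.20 and Ahsa1, an activator of Hsp90, at -0.19. All 3 lost their calls without the unnumbered cortex array, and Cryab (adjusted p = 0.0545) and Hspe1 (0.134) also without the repeated array. Leaving out the unnumbered array left the Hspe1 estimate the same, at -0.20 ± 0.07, so this run does not check its ratio. Its limma adjusted p, which also depends on the other features, went from 0.0401 to 0.0658. Hspe1 was at -0.02 in the fit with replicate number as a block. The major chaperones Hspa8 (-0.11), Hsp90aa1 (-0.03) and Hspd1 (-0.07) did not pass. The Hspa8 probes differed, at -0.25 (limma adjusted p = 0.00913 for this probe on its own), -0.12 and 0.04. By region, 3 heat shock genes passed as lower in the cortex (Hsph1, Chordc1 and Stip1), beside 2.44% of features, and 2 in the cerebellum (Chordc1 and Dnajb1), beside 1.57%, where 0 passed without the repeated array. In the hippocampus and brain stem-diencephalon 0 passed as lower, beside 0.505% and 0.313% of features. At an unadjusted p under 0.05, 4 and 7 were lower there. The share of all features at that threshold is not given here, so these 2 counts cannot be set against it. No difference between regions was called for any of these genes.

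**Figure D4:**
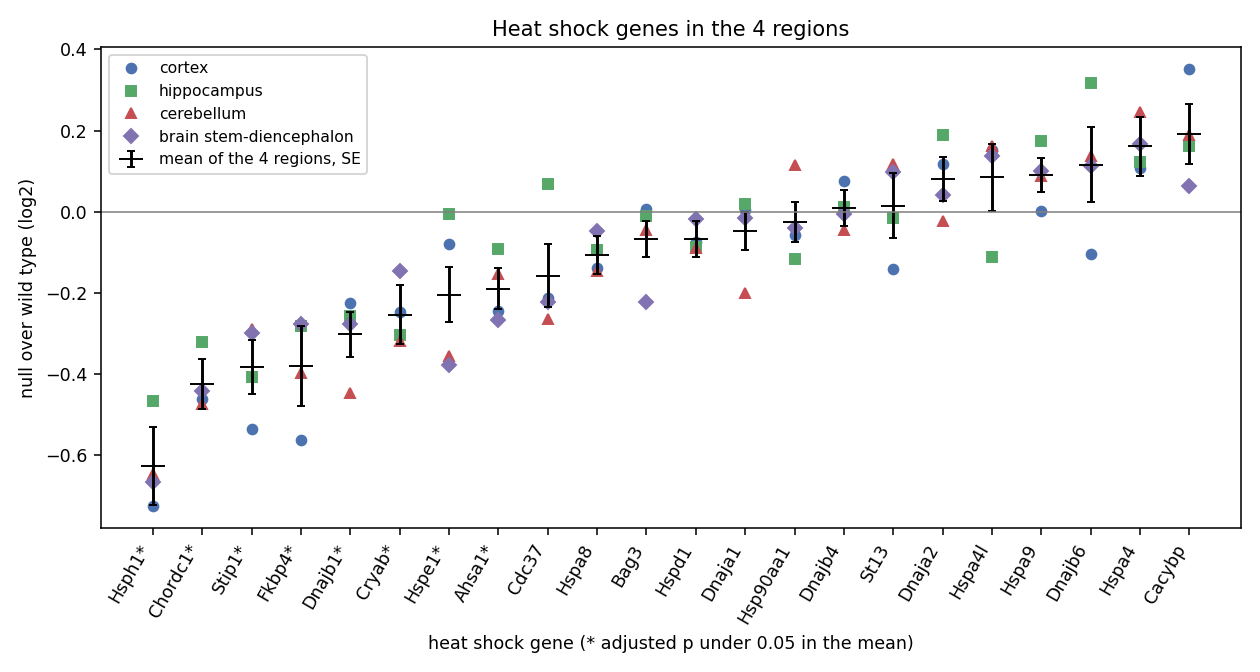
Log2 ratio of null over wild type (y axis) of the 22 measured heat shock genes (x axis), with the 4 fitted region values as coloured marks and the mean of the 4 regions with its SE in black. The 8 genes marked with a star passed an adjusted p under 0.05 in the mean, and all 8 lie below 0.

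Clock genes gave 1 call in each direction among 8 measured genes, 12.5% each, near the 13.2% of all features higher and 12.9% lower. Ciart, a repressor that acts on the core clock, was higher by 0.39 ± 0.08 in 12 of 13 replicates (limma adjusted p = 0.00313). The cortex, at 0.89, was the region where Ciart passed on its own (adjusted p = 0.00993, beside 1.68% of features higher there), but no difference between regions was called. Npas2, which pairs with the clock activator Bmal1, was lower by 0.28 ± 0.08 in 12 of 13 replicates (adjusted p = 0.0179), and lost the call without the unnumbered cortex array (adjusted p = 0.199) and with the block (0.0575). Nr1d2, at 0.11, and Rora, at 0.37, did not pass, nor did Csnk1d (-0.13), Per3 (0.07), Tef (0.06) or Csnk1e (-0.05).

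Genes reported as targets, regulators or modifiers of Rbm3 or Cirbp moved in both directions. Of 13 measured, 3 passed as higher and 2 as lower, beside 13.2% and 12.9% of all features. Rtn3, a reticulon that has been described as a translational target of Rbm3, was higher by 0.29 ± 0.09 (limma adjusted p = 0.0323; 0.0880 without the repeated array). Txn1, thioredoxin, and Rpa2, a subunit of the single-strand DNA-binding complex, have been described as targets of Cirbp. Txn1 was higher by 0.34 ± 0.10 (adjusted p = 0.0188; 0.125 without the repeated array) and Rpa2 by 0.23 ± 0.07 (adjusted p = 0.0203). The probes of Rpa2 differed, at 0.36 and 0.11.

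Srpk1 and Clk1, kinases that phosphorylate serine and arginine repeats in RNA-binding proteins, passed as lower. Srpk1 ranged from -0.995 to 0.313 over 20 arrays with a median of -0.40 and was lower by 0.49 ± 0.10 in 12 of 13 replicates (limma adjusted p = 0.0033). Clk1 was lower by 0.15 ± 0.05 (adjusted p = 0.0432), and lost the call without the repeated array (adjusted p = 0.125). Hif1a (0.25), a transcription factor of the hypoxia response, and Gsk3b (0.09) did not pass. The Gsk3b probes differed, at 0.22 (limma adjusted p = 0.0134 for this probe on its own) and -0.05.

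Polyadenylation factors, which cut and tail transcripts, gave 3 calls higher and 2 lower among 15 measured genes. These are 20% and 13.3% of the list, beside 13.2% and 12.9% of all features. Pabpn1, the nuclear poly(A)-binding protein, had the lowest ratio of all list genes, -1.37 ± 0.16 (2.59-fold, limma adjusted p = 0.000108), and was below 0 in 13 of 13 replicates. It ranged from -2.30 to 0.24 over 19 arrays. A further Pabpn1 probe, too rarely measured to be tested, had its median at -0.47 over 10 arrays, while the tested probe had -1.26. Cpsf1, a subunit of the cleavage complex, was lower by 0.26 ± 0.07 (adjusted p = 0.0189; 0.0514 without the repeated array). Pabpc1, the cytoplasmic poly(A)-binding protein, was higher by 0.34 ± 0.08, Cstf2 by 0.26 ± 0.08 and Nudt21 by 0.15 ± 0.04, and without the unnumbered cortex array none of these 3 passed.

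Other RNA-binding proteins with RNA recognition motifs, the domain of Rbm3 and Cirbp, also moved both ways. Of 38 measured genes, 5 passed as higher and 10 as lower, beside 13.2% and 12.9% of all features, with a median of -0.004. The highest of the 38 was Rbm7, a member of a nuclear RNA exosome complex, at 0.38 ± 0.09 (limma adjusted p = 0.00724). This lay below the Cirbp estimate of the same fit, but without all arrays of number 1 Rbm7 was at 0.50 and Cirbp at 0.44. Srsf3, a splicing factor, was higher by 0.24 ± 0.05 (adjusted p = 0.0056). Without the unnumbered cortex array Rbm7 lost its call (adjusted p = 0.0618). The 5 calls with the smallest p were splicing regulators and lower. Srsf10 was at -0.47 ± 0.09, Srsf1 at -0.46 ± 0.08, Hnrnpl at -0.40 ± 0.07, Tra2a at -0.36 ± 0.07 and Hnrnpc at -0.29 ± 0.05, with limma adjusted p between 0.00214 and 0.00297. The tested probes of Srsf10 were at -0.69 and -0.28, and those of Hnrnpc ran from -0.47 to -0.05.

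Hypoxia raises both Rbm3 and Cirbp in cultured cells, so hypoxia genes were listed too. Of 16 measured, 2 passed as higher and 4 as lower, beside 13.2% and 12.9% of all features, with a median of -0.05. Slc2a3, the neuronal glucose transporter, was lower by 0.28 ± 0.06 in 12 of 12 replicates (limma adjusted p = 0.0064), and Pfkfb3 (-0.28), Ldha (-0.23) and Adm (-0.16) were lower as well. The last 3 lost their calls without the unnumbered cortex array, and Slc2a3 (adjusted p = 0.0957) and Adm (0.112) with the replicate number as a block. Bnip3, a mitophagy receptor, was higher by 0.19 ± 0.05 (adjusted p = 0.0159; 0.0548 without the repeated array and 0.362 with the block). Among 5 measured immediate early genes, which follow neuronal activity, 1 passed as lower and 0 as higher, beside 12.9% and 13.2% of all features. This was Fosl2 (-0.17 ± 0.05, limma adjusted p = 0.0313), which did not pass without the unnumbered cortex array (adjusted p = 0.141) or with the block (0.137). Ier5 passed in the cortex alone (-0.68, adjusted p = 0.022, beside 2.44% of features lower there), and its difference between regions was not called.

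**Figure D5:**
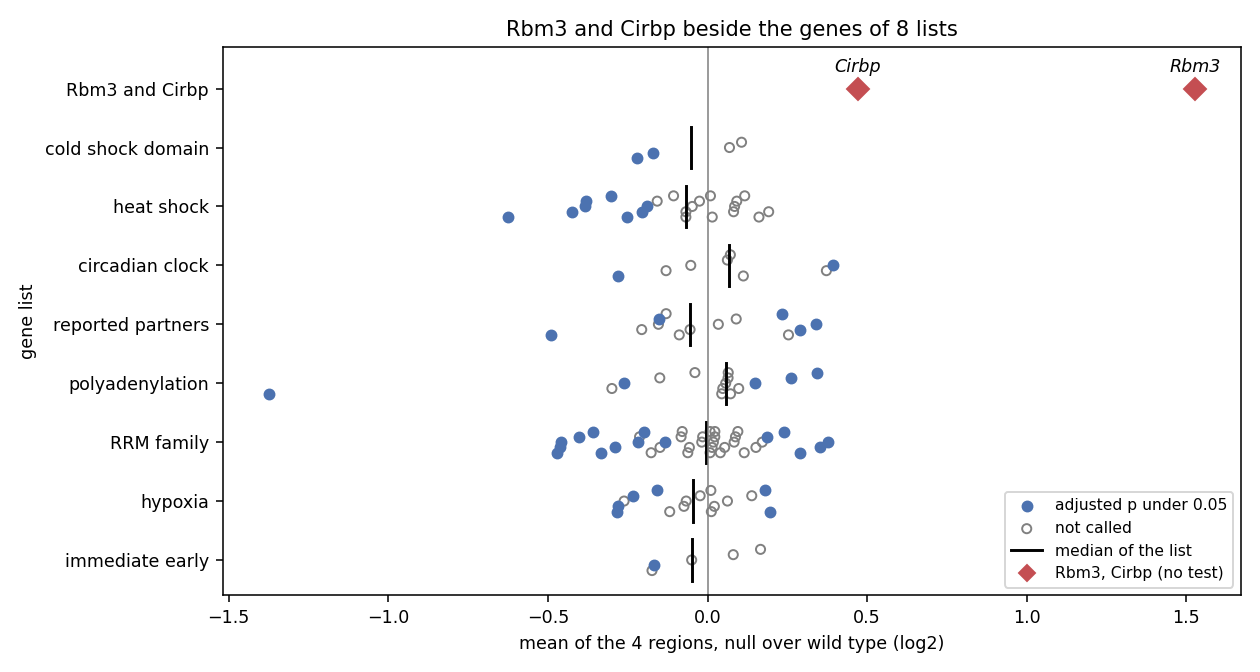
Mean over the 4 regions of the log2 ratio of null over wild type (x axis) for Rbm3 and Cirbp and for the measured genes of 8 gene lists (y axis). Filled circles passed an adjusted p under 0.05, open circles did not, and bars mark list medians, while Rbm3 and Cirbp carry no test. In this fit of all arrays, Cirbp at 0.47 and Rbm3 at 1.53, both chosen on this contrast, lie above every gene of the 8 lists. The highest list value is 0.39. Without all arrays of number 1, Cirbp is at 0.44, below list genes such as Rora at 0.54. The list of sex-linked genes is not drawn, and its Eif2s3y, at 0.74, lies above Cirbp.

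Genes with a pattern most like that of Rbm3 and Cirbp were read from Pearson's r over the replicates, less the orientation term. These are descriptions over at most 13 points that share arrays and the wild-type pool. For Rbm3, the closest of 4705 genes were Phax, an export adaptor of small nuclear RNAs, at 0.94 over 12 replicates, Etnk1, an ethanolamine kinase, at 0.86, Tmed5, a cargo protein of the secretory pathway, at 0.85, Gpkow, a spliceosome protein, at 0.84, and Nol7, a nucleolar protein, at 0.83. Over single arrays without the repeated one, their r ran from 0.69 to 0.85. None of these 5 genes passed the test in the mean of the 4 regions, where they lay between 0.05 and 0.19.

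For Cirbp, the closest of 3783 genes were Man1a2, a Golgi mannosidase, at 0.91, Atp6v1g1, a subunit of the vacuolar proton ATPase, at 0.87, Coa7, a cytochrome oxidase assembly factor, at 0.87, Klhl18 at 0.85 and Mapk1ip1l at 0.84, over 12 replicates. Over single arrays without the repeated one, Man1a2 dropped to 0.62, Klhl18 to 0.41 and Mapk1ip1l to 0.44. Between Rbm3 and Cirbp, r was -0.37 over 12 replicates and -0.08 over 17 single arrays, so the arrays with the highest Rbm3 were not those with the highest Cirbp.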

How the data were processed

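The 20 arrays of mouse brain RNA, with 2 colours each, were read from the deposited value table. The authors deposited log ratios of the channels, already centred near 0 (array medians 0.00862 to 0.0609) and read here as log2 values; the sources used here do not give the log base, channel order, scanner settings or normalization. Swapped arrays were multiplied by -1 and arrays centred on their median. Probes needed a value on 3 arrays of every region and on 1 of each orientation there, and 9701 met this. Averaging a gene's probes gave 8319 features, 5255 of them genes. Gene names came from the platform annotation, updated by Entrez ID (9496 of 9604 single symbols matched). Arrays of one region and number were averaged to 13 replicates. A linear model with region and orientation terms was moderated with limma 3.58.1 in R 4.3.3 and tested on simulated data. Adjustment was by Benjamini and Hochberg over all features (threshold 0.05).

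Rbm3, Cirbp and the gene lists were chosen with earlier results of these data known. From each list, up to 5 genes past the threshold with the smallest p were named, with all measured cold shock domain, clock and sex-linked genes, and the 5 genes most like each of Rbm3 and Cirbp. Other genes were named after their values were seen. The mutated gene is not reported here. The alternatives were other centring, scaling, filters, probe handling, variance models, blocks and left-out arrays.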

Additional observations from a re-analysis of the deposited data

Results flagged for a closer look

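Of 12 groups of 4 or 5 arrays checked for Rbm3, Cirbp and Eif2s3y, 2 held an array far from the others. Chance alone flags about 1 in 20 such groups. For Cirbp in brain stem-diencephalon, the swapped array of number 2 was at 0.769. Its gap to the nearest array was 0.711 of the range of the 5 arrays, just past the critical value of 0.710. It is the array that also stands under cerebellum. For Eif2s3y in the cerebellum, the channel 1 array of number 1 was at -0.768 while the other arrays lay above 0, with a gap of 0.846 of the range.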

How the results depend on the processing

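The replicate means of Rbm3 and Cirbp stayed above 0 and within 1 SD under every alternative run, from 1.503 to 1.65 for Rbm3 and from 0.471 to 0.524 for Cirbp. The region F tests stayed above the threshold under every alternative run, with adjusted p of at least 0.670 for Rbm3 and 0.797 for Cirbp. Cirbp lacks a value on 1 array, so the filter on features with a value on all 20 arrays gave no value for it. Same-numbered replicates of different regions correlated at -0.166 to 0.710 over 18 pairs (median 0.220, against -0.112 over 45 pairs of other numbers). Eif2s3y also split by number. Outside the repeated array, it was at -1.36 to -0.44 on the 6 arrays of number 1. On the 11 other arrays with a value, Eif2s3y was at 0.93 to 1.64. The main fit did not pair samples by number and counted replicates as independent. Whether same-numbered samples came from the same animal was not tested. With the number as a replicate block, the F tests gave adjusted p of 0.670 for Rbm3 and 0.831 for Cirbp, and 39 list genes passed against 45 without it.

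List calls changed with the arrays used, and no share over all features is given beside the counts that follow. With features on all 20 arrays, where fewer genes are tested, 16 list genes passed and 4 heat shock genes were lower. Without the unnumbered cortex array, these counts were 15 and 4. Leaving out single replicates gave 26 to 53 list genes and 6 to 9 heat shock genes lower. Of the 31 called list genes picked by the naming rule, 17 lost their calls without the unnumbered cortex array, 9 without the repeated array, 11 without replicate 2 of the cerebellum, 10 without replicate 2 of brain stem-diencephalon, 7 without replicate 2 of the hippocampus and 8 with the replicate block. Where fewer samples do not account for it, the cause was not tested. Of the named genes, Per3 turned to -0.0399 without the orientation term and Csnk1e ran from -0.121 to 0.00801 when single replicates were left out, above 0 without replicate 1 of brain stem-diencephalon; neither passed the test.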
